A study of Mus musculus with 22 samples.

Results

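Empty AAV9 capsids were compared with PBS in the neonatal mouse liver, using 8 of the 22 livers of the series. The comparison took every liver whose treatment is given as AAV9.empty (4 livers) or as PBS (4 livers). All 8 came from male WT C57BL/6 pups that were injected intravenously on postnatal day 1, and the livers were taken 36 hours later. AAV9.empty is the AAV9 protein shell with no vector genome inside. By the labels, the 2 groups therefore differ by the capsid and share the injection, the age, the strain and the sex. They also differed in transcripts of other organs, as given below. The samples are whole livers, the dose of capsid is not among the labels, and no label gives a date or batch of library preparation. RNA of each liver was sequenced, and the values are expected counts per gene, TPM (a level corrected for transcript length, used here to compare genes with each other) and CPM (counts scaled to a common library size with TMM factors, used here to compare livers).

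AAV9 reaches the liver in large amounts after intravenous injection. The capsid binds galactose on the cell surface, enters through the AAV receptor, which is encoded by AU040320 in the mouse, and needs the host factor Gpr108. Of the sensors of AAV, Tlr2 recognises capsid protein and Tlr9 recognises the DNA genome, both through Myd88, and an empty capsid presents the former without the latter. At this age the liver is an organ of the newborn metabolism and also a site of blood formation, so hepatocyte and erythroid transcripts are read together.

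The 4 PBS livers held 19299527 to 24305788 expected counts and the 4 AAV9.empty livers 18500161 to 21841146. Of the 55291 genes in the table, 30624 had no count in any of the 8 livers and 14476 passed the filter on low counts and were tested with edgeR. The correlation of log2 CPM between livers was 0.978 to 0.982 within PBS, 0.981 to 0.985 within AAV9.empty and 0.977 to 0.985 between the groups. On the first principal component, which held 22.1% of the variance, PBS livers 2, 3 and 4 had scores of 11.3 to 25.9, and PBS liver 1, at −14.4, lay in the range of the AAV9.empty livers, −22.3 to −2.27.

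Genes of other organs stood out in 2 of the AAV9.empty livers and, at lower levels, adrenal genes did so in AAV9.empty liver 1. This bears on every result that rests on these livers. The stomach protease gene Cym was at 5.05, 3.87, 4.35 and 4.91 CPM in the PBS livers and at 2.39, 4.24, 451 and 4.83 CPM in the AAV9.empty livers. Of 10 stomach genes and 10 pancreas genes listed after the data had been seen, 10 and 9 had their highest level in AAV9.empty liver 3, where the lists summed to 571 and 130 CPM, against at most 7.72 and 12 CPM in the other 7 livers. Of 10 adrenal genes, 9 had their highest level in AAV9.empty liver 4, including the steroid enzyme Cyp11a1 at 13.5 CPM and the chromaffin gene Chga at 22.4 CPM. The adrenal list summed to 93.1 CPM there, to 13 CPM in AAV9.empty liver 1 and to 2.95 to 5.53 CPM in the others. Calls, and the values of the genes most affected, are therefore also given without AAV9.empty livers 3 and 4. That comparison of 2 livers with 4 was chosen after the data had been seen. It keeps AAV9.empty liver 1, where Chga was at 3.63 CPM against at most 1.31 CPM in PBS, so it is not free of adrenal transcripts.

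Few genes were called between the capsid group and the PBS group, and the called genes differed by small amounts. At an adjusted p of at most 0.05, 45 of the 14476 genes tested were called (0.311%), 15 of them higher in AAV9.empty (0.104%) and 30 lower (0.207%). With a fold change of at least 2 as well, 4 remained (0.0276%), of which H2-Q6, H2-Q7 and Jun were higher and Inmt was lower. The called genes differed by 0.41 to 1.23 on the log2 scale, with a median of 0.64. None of the 45 had groups that overlapped, while 1030 of all genes tested (7.12%) had groups that did not overlap. Before adjustment, 1845 of the 14476 genes had a p below 0.05 in the edgeR test. The number of calls is therefore not the number of genes that differ. The plot of all genes tested shows where the called genes lie.

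**Figure D1:**
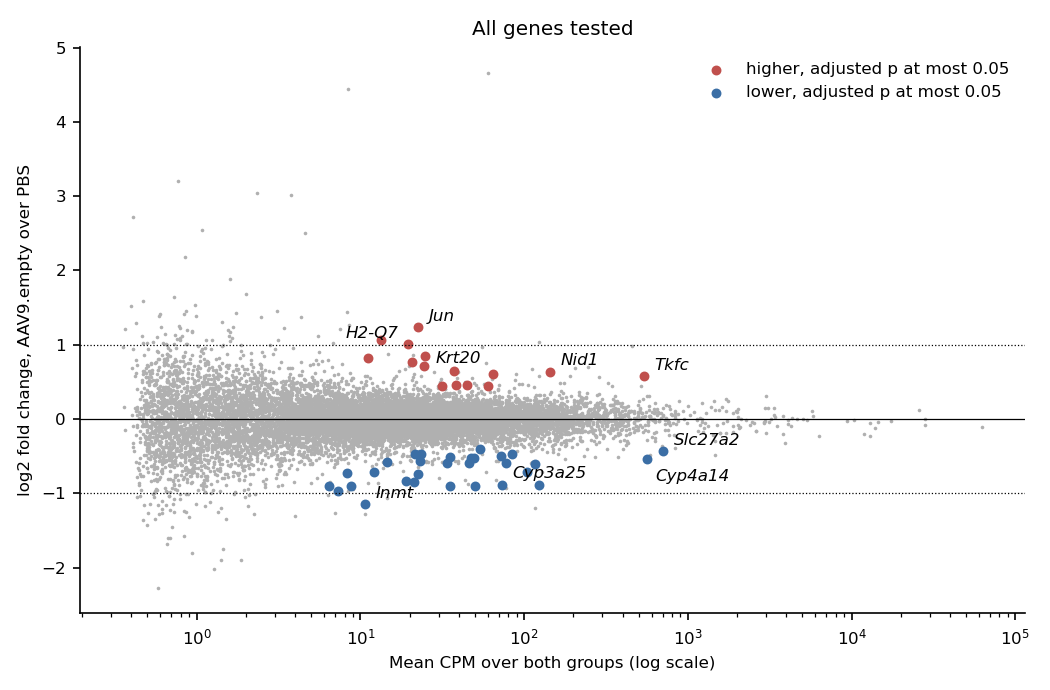
Fitted log2 fold change of AAV9.empty over PBS against the mean CPM of both groups on a log scale for the 14476 genes tested, with 15 genes called higher in red, 30 called lower in blue and dotted lines at a fold of 2. The called genes lie between −1.15 and 1.23, and the few points beyond 2 on this scale are not called.

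The number of calls depended on single livers. Leaving out PBS liver 1 raised it to 234, which held all 45, and leaving out PBS liver 4 lowered it to 5. The count was 22 without PBS liver 2, 13 without PBS liver 3, and 22, 23 and 24 without AAV9.empty livers 2, 3 and 4 in turn. Without AAV9.empty liver 1 it was 50, of which only 28 were among the 45. It was 13 when AAV9.empty livers 3 and 4 were left out, of which 10 were among the 45, namely Krt20, H2-Q7, Nid1, Dio1, Cyp3a25, Sult2a8, Nlrp6, Tff3, Nrbp2 and BC024386. The other called genes did not pass there. Krt20, H2-Q7, Nid1, Cyp3a25 and Sult2a8 passed in each of the 8 fits that left out 1 liver and in the fit without AAV9.empty livers 3 and 4.

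Most genes were measured closely enough to bound their difference. For 12656 genes (87.4% of those tested) the 95% interval of the log2 fold change lay within 1 of 0. It lay within 0.5 of 0 for 9122 genes (63.0% of those tested). Of the 1820 genes not bounded within 1 of 0, 1503 had a mean below 2 CPM. A bounded gene can still differ and be called, as Nid1 was, with an interval of 0.47 to 0.81. Fold changes over the genes tested had a median of −0.0038 (log2).

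The genes of the antigen-presenting molecules held the called pair with the highest folds apart from Jun. H2-Q6 and H2-Q7 are nonclassical MHC class I genes that lie beside each other on chromosome 17, at chr17:35424850-35430055 and chr17:35439155-35443773 on the plus strand of mm10 (GRCm38). H2-Q7 stood at 15.4, 13.8, 11.5 and 11.2 CPM in the PBS livers and at 25, 26.2, 22.8 and 30.1 CPM in the AAV9.empty livers. The highest PBS liver was below the lowest AAV9.empty liver. The log2 fold change was 1.01 ± 0.12 (SE, adjusted p = 0.00242), and 0.98 without AAV9.empty livers 3 and 4 (adjusted p = 0.0176). H2-Q6 stood at 9.80, 6.69, 10.9 and 7.14 CPM and at 18.7, 16.8, 15.3 and 21.4 CPM, again with no overlap, and differed by 1.06 ± 0.16 (adjusted p = 0.0108). Without AAV9.empty livers 3 and 4 its log2 fold change was 1.04 (adjusted p = 0.0539).

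The promoters of H2-Q6 and H2-Q7 are shown because the 2 genes rose together and have nearly the same sequence. They are taken from RefSeq (GRCm38.p6), run from 250 bases before to 50 after the start of the gene and are written 5′ to 3′. Capitals mark TTTCACTT, the core of the interferon element of class I promoters, and GGATTCCCC, a form of their kappaB element, each searched on both strands.
H2-Q7 (chr17:35438905-35439204, plus strand): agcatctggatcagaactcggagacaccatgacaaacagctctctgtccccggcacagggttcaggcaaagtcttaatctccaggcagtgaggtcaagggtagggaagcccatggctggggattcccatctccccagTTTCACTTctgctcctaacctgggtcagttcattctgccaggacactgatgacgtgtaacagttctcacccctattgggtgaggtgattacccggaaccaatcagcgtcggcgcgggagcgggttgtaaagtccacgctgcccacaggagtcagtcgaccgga
H2-Q6 (chr17:35424600-35424899, plus strand): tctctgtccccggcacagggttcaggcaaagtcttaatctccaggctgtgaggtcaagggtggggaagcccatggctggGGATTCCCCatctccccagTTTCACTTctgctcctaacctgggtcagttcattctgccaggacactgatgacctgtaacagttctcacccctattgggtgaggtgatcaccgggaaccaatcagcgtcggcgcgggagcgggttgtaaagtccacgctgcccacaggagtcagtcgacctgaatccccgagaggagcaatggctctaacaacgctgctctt
Over the 260 bases in which the promoters align, 254 were identical (97.7%). Both hold TTTCACTT, which 526 of 32851 promoters of this length hold (1.60%). H2-Q6 alone holds GGATTCCCC as written, found in 93 of them (0.283%). At the same place H2-Q7 reads GGATTCCCA. Other forms of the kappaB element were not searched, so H2-Q7 is not shown to lack it. Among the 33 called genes with a promoter in the table, the first motif was in H2-Q6 and H2-Q7 and in no other. Of the 31-base words in the transcripts of H2-Q7, 39.1% also occur in other genes, most of them in H2-Q10, and for H2-Q6 the share was 50.3%, so that reads may have been divided between class I genes.

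The other class I genes, named after their values had been seen, did not pass. H2-K1, a classical class I gene, stood at 379, 283, 311 and 299 CPM in PBS and 409.8, 419, 365 and 345 CPM in AAV9.empty, and its log2 fold change was 0.28 (interval 0.069 to 0.48, adjusted p = 0.235). For H2-D1 it was 0.24 (adjusted p = 0.316), for H2-T22 0.37 (adjusted p = 0.119) and for H2-Q4 0.22 (adjusted p = 0.335). H2-Q10, the most abundant class I gene here per length, had a log2 fold change of 0.087 with an interval of −0.10 to 0.27. B2m, the light chain of class I molecules, was at 578, 448, 395 and 437 CPM and 552, 556, 534 and 483 CPM, so the groups overlapped. The proteasome subunit gene Psmb8 and the peptide transporter gene Tap1 differed by 0.42 (adjusted p = 0.145) and 0.32 (adjusted p = 0.214).

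**Figure D2:**
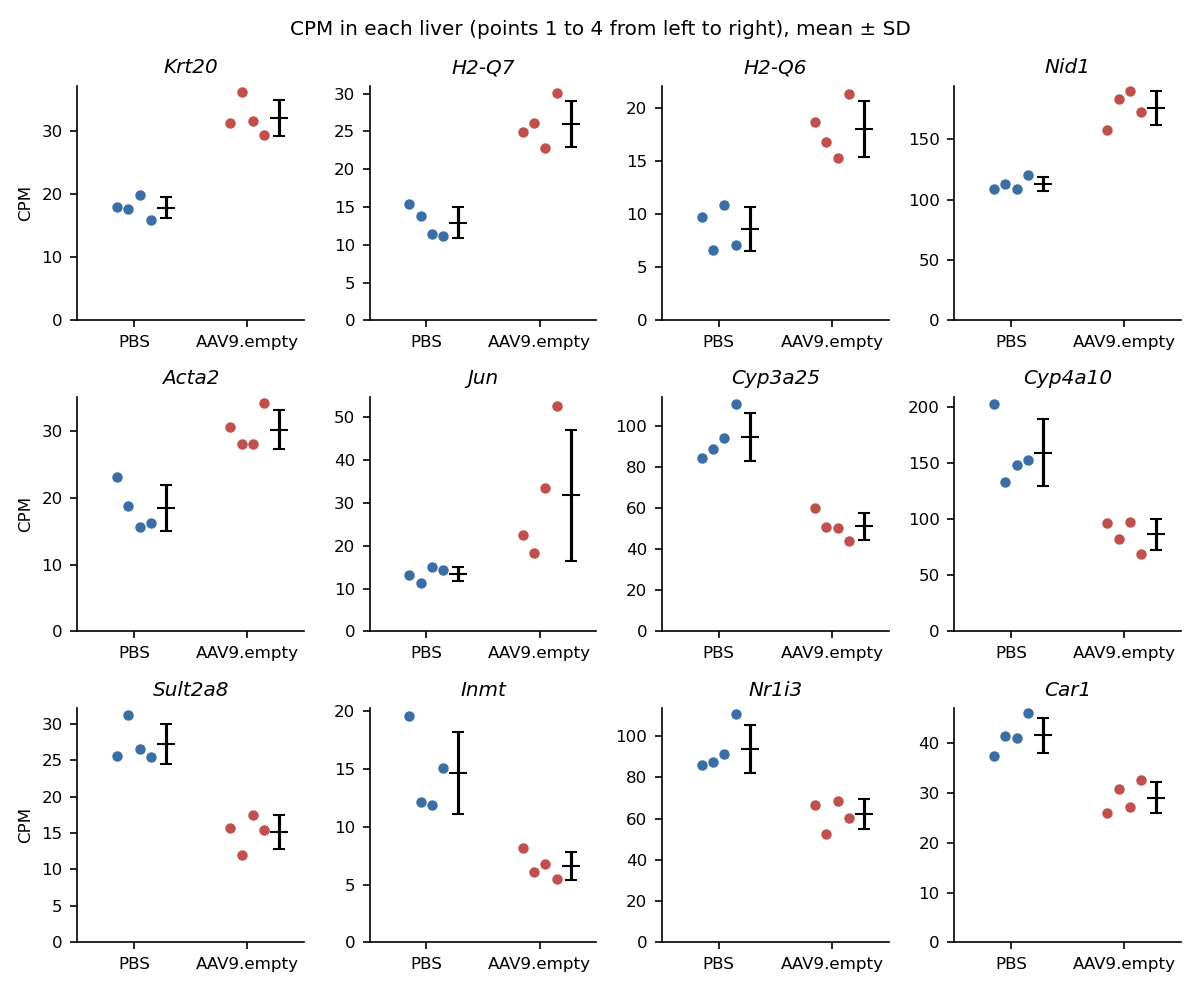
CPM of 12 called genes in each of the 4 PBS livers (blue) and the 4 AAV9.empty livers (red), with livers 1 to 4 from left to right, and mean ± SD in black. No panel has overlapping groups, and Jun, at 18.4 to 52.6 CPM in AAV9.empty, has the widest spread for its mean.

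Krt20, Nid1 and Acta2 were among the genes called higher. Krt20 (chr11:99428403-99438150, minus strand), a keratin of epithelia, stood at 17.96, 17.7, 19.9 and 15.8 CPM in PBS and at 31.2, 36.1, 31.6 and 29.3 CPM in AAV9.empty. Every AAV9.empty liver was above every PBS liver. The log2 fold change was 0.84 ± 0.10 (adjusted p = 0.00242), and 0.92 without AAV9.empty livers 3 and 4 (adjusted p = 0.0176). Nid1 (chr13:13437551-13512269, plus strand) encodes nidogen, which links laminin and collagen IV in basement membranes. It stood at 109, 113, 109 and 121 CPM and at 158, 184, 189.9 and 173 CPM, with a log2 fold change of 0.64 ± 0.078 (adjusted p = 0.00242), and 0.60 without the same livers (adjusted p = 0.0459). Acta2 encodes smooth muscle actin and stood at 23.1, 18.7, 15.7 and 16.2 CPM and at 30.6, 27.99, 27.99 and 34.1 CPM. The groups of Acta2 did not overlap, its log2 fold change was 0.71 ± 0.12 (adjusted p = 0.0239), and without AAV9.empty livers 3 and 4 it was 0.67 (adjusted p = 0.138).

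Acta2 was the 1 gene called of the 28 tested in the list of stellate cells and matrix. The median log2 fold change of the list was 0.19, and 25 of its 28 members were above 0. In 8 the groups did not overlap, all higher in AAV9.empty, against 7.12% of all genes tested in either direction. The median was 0.08 without AAV9.empty livers 3 and 4. The basement membrane collagen Col4a1 was at 212, 208, 201 and 199.8 CPM and 241, 262, 253 and 241 CPM, and its log2 fold change of 0.28 missed the threshold (adjusted p = 0.0891). Fn1, the most abundant member per length, had a log2 fold change of 0.045 with an interval of −0.16 to 0.25, and Sparc one of 0.18 (0.0039 to 0.36). None of the 24 genes of sinusoidal endothelial cells passed, and their median was 0.11.

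Sec61g, Tmx2 and Fkbp11, whose products reside in the ER, were also called higher. Sec61g, a subunit of the channel that takes proteins into the ER, stood at 55.2, 52.6, 44.6 and 52.6 CPM in PBS and at 63.8, 71.98, 87.9 and 88.2 CPM in AAV9.empty. The AAV9.empty livers were all higher, livers 3 and 4 most. Its log2 fold change was 0.60 ± 0.11 (adjusted p = 0.0279), and 0.41 without those livers, where it did not pass (adjusted p = 0.238). Tmx2, a thioredoxin-like ER protein, stood at 49.8, 50.5, 52.7 and 51.4 CPM and 69.8, 71, 67.4 and 69.9 CPM, a small difference of 0.44 ± 0.070 (adjusted p = 0.0164) between 2 narrow groups, and 31.4% of its words of 31 bases also occur in other genes. Fkbp11, an ER prolyl isomerase, differed by 0.45 ± 0.081 (adjusted p = 0.0279). None of the 25 tested genes of the list of ER chaperones and the unfolded protein response passed, and all 25 were bounded within 1 of 0. Hspa5, the main ER chaperone, had a log2 fold change of 0.14 (−0.029 to 0.30) and the lectin-like chaperone gene Calr one of 0.24 (0.057 to 0.42).

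The remaining genes that were higher are enzymes, a transporter and small regulators. Dio1, the deiodinase that activates thyroid hormone, stood at 8.17, 7.39, 8.08 and 8.30 CPM and 16.1, 16.97, 12.2 and 11.4 CPM, a log2 fold change of 0.83 ± 0.14 (adjusted p = 0.0239). Without AAV9.empty livers 3 and 4 it was 1.05 (adjusted p = 0.0176). Tkfc, a kinase of fructose metabolism, was at 427, 395, 495 and 408 CPM and 499, 681, 686 and 702 CPM, with AAV9.empty liver 1 nearest to the PBS livers. Akr1c18, which inactivates progesterone, was at 29.9, 26.3, 30.5 and 28.6 CPM and 35.1, 41.3, 50.1 and 54.6 CPM and highest in AAV9.empty livers 3 and 4. Without these its log2 fold change went from 0.65 to 0.41 (adjusted p = 0.272). Higd1a, a mitochondrial protein of low oxygen, the annexin partner S100a10 and the ammonium transporter Rhbg differed by 0.45, 0.45 and 0.76 (adjusted p = 0.0281, 0.0351 and 0.0479). Of the 31-base words of Rhbg transcripts 60.8% occur in another gene model, Gm38392, so its reads may be shared.

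Jun, a subunit of the AP-1 transcription factor, had the highest fold of the called genes and, relative to its mean, the widest spread in AAV9.empty. It stood at 13.1, 11.3, 15.04 and 14.4 CPM in the PBS livers and at 22.6, 18.4, 33.4 and 52.6 CPM in the AAV9.empty livers. All AAV9.empty livers were above the PBS livers, and livers 3 and 4, those with the highest levels of genes of other organs, were the highest. The log2 fold change was 1.23 ± 0.24 (adjusted p = 0.0465). Without AAV9.empty livers 3 and 4 it was 0.61 (adjusted p = 0.178). Egr1, another immediate-early gene, showed the same 2 livers on top, at 46.1, 40.4, 77.2 and 127 CPM against 30, 26.5, 44.5 and 47.3 CPM in PBS, and did not pass (adjusted p = 0.162). Fos was at 2.86, 4.58, 6.08 and 4.30 CPM in PBS and 1.70, 2.17, 12.5 and 20.1 CPM in AAV9.empty, with AAV9.empty livers 1 and 2 below every PBS liver.

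Of the 27 immediate-early genes tested, Jun was the 1 that passed, and the median log2 fold change of the list was 0.34. Without AAV9.empty livers 3 and 4 this median was −0.0054. The most abundant members per length, Jund and Ier2, had log2 fold changes of 0.29 and 0.36 (adjusted p = 0.224 and 0.222). The part of the other organs' RNA in these values was not tested.

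Among the genes called lower were cytochromes P450 of the CYP3A and CYP4A families and 2 sulfotransferases. Cyp3a25 (chr5:145977194-146009618, minus strand), a liver enzyme of the CYP3A family, stood at 84.2, 88.8, 94.3 and 111 CPM in PBS and at 60.01, 50.6, 50.4 and 44.01 CPM in AAV9.empty. The lowest PBS liver was above the highest AAV9.empty liver. The log2 fold change was −0.88 ± 0.11 (adjusted p = 0.00242), and −0.77 without AAV9.empty livers 3 and 4 (adjusted p = 0.0459). Its promoter (RefSeq, GRCm38.p6, 5′ to 3′) is shown because Nr1i3, which encodes the nuclear receptor CAR, was lower in the same livers, and receptors of this class bind copies of AGGTCA, marked in capitals on either strand.
Cyp3a25 (chr5:146009569-146009868, minus strand): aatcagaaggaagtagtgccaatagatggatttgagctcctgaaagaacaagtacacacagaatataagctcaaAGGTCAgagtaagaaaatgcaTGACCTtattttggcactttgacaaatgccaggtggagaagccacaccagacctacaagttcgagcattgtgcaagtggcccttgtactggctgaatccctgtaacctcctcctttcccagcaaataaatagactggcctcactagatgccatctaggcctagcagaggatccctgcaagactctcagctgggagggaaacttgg
The motif occurred 2 times in this promoter, and whether CAR acts on it was not tested. It was in 5340 of 32851 promoters (16.3%) and in 10 of the 33 called genes with a promoter in the table.

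Nr1i3 itself was at 85.8, 87.3, 91.2 and 111 CPM in PBS and 66.5, 52.5, 68.7 and 60.3 CPM in AAV9.empty. The groups did not overlap, and the log2 fold change was −0.60 ± 0.10 (adjusted p = 0.0239). Cyp2b10, the gene by which CAR activity is usually read, was low, at 1.19, 1.26, 0.869 and 1.42 CPM and 0.735, 0.776, 0.376 and 0.0965 CPM. Its groups did not overlap, but it did not pass (adjusted p = 0.274). Nr1i2, the related receptor PXR, had a log2 fold change of 0.027 with an interval of −0.18 to 0.23. Cyp3a13 stood at 61.7, 59.1, 53.6 and 59.3 CPM and 47, 42.4, 34.8 and 38.2 CPM and fell by 0.52 on the log2 scale (adjusted p = 0.0285). Cyp3a59 stood at 9.40, 9.96, 9.56 and 9.87 CPM and 6.80, 4.29, 5.59 and 3.18 CPM (adjusted p = 0.0465), and 870 of its 2002 words of 31 bases also occur in Cyp3a25. The more abundant CYP3A genes did not pass. Cyp3a11 had a log2 fold change of −0.19 (−0.36 to −0.028), Cyp3a16 of −0.058 (−0.21 to 0.10) and Cyp3a41a of 0.21 (−0.0015 to 0.43).

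In the list of P450 enzymes of drug metabolism, 2 of 20 genes tested were lower, Cyp3a25 and Cyp3a13, and none was higher. The median log2 fold change was −0.21 and 4 members were above 0. The median was −0.12 without AAV9.empty livers 3 and 4. Cyp2e1 and Cyp2d26, the most abundant members per length, had log2 fold changes of −0.22 (−0.51 to 0.068) and −0.16 (−0.38 to 0.061). Of 24 phase II enzymes tested, Sult2a1 was lower and none was higher. Sult2a1 and Sult2a8 are sulfotransferases of steroids and bile acids. Sult2a8 stood at 25.6, 31.2, 26.5 and 25.4 CPM and 15.7, 11.95, 17.4 and 15.4 CPM, fell by 0.85 on the log2 scale (adjusted p = 0.00767), and by 0.97 without AAV9.empty livers 3 and 4 (adjusted p = 0.0256). Sult2a1 stood at 25.1, 21.4, 18.9 and 32.2 CPM and 14.9, 14.3, 11.3 and 14.04 CPM (adjusted p = 0.0279), and 55.6% of its words of 31 bases also occur in other genes, mostly Sult2a2, so its reads may be shared. Inmt, a methyltransferase of small amines, had the largest fall, from 19.6, 12.2, 11.9 and 15.1 CPM to 8.18, 6.05, 6.77 and 5.45 CPM, a log2 fold change of −1.15 ± 0.17 (adjusted p = 0.0109). The AAV9.empty livers of Inmt were all below the PBS livers, and without livers 3 and 4 its value was −1.04 (adjusted p = 0.132).

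The CYP4A enzymes, which oxidise the end of the fatty acid chain and are targets of PPARα, were lower too. Cyp4a10 (chr4:115518264-115533649, plus strand) stood at 202, 133, 148 and 153 CPM and 96.9, 82.02, 97.1 and 69.2 CPM, with PBS liver 1 the highest and no overlap. Its log2 fold change was −0.88 ± 0.13 (adjusted p = 0.0108). Cyp4a14 was at 778, 596, 608 and 669.5 CPM and 502, 469, 453 and 411 CPM, and fell by 0.53 (adjusted p = 0.0279). Cyp4a31 fell by 0.47 (adjusted p = 0.0239). Of the 31-base words of Cyp4a10 44.9% occur in other genes, mostly Cyp4a32, and of those of Cyp4a31 32.0%. Ppara itself had a log2 fold change of −0.089 with an interval of −0.28 to 0.11.

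Most other genes of fatty acid handling had smaller differences. In the list of fatty acid oxidation and ketogenesis, Cyp4a10 and Cyp4a14 were the 2 called of 26, both lower, and the median was −0.11. The groups of 7 members did not overlap, all lower in AAV9.empty. Among all genes tested this share was 7.12% in either direction. Cpt1a, which takes fatty acids into liver mitochondria, differed by −0.013 (−0.18 to 0.15). Slc27a2, a fatty acid transporter and acyl-CoA synthetase, stood at 859.8, 794, 808 and 783 CPM and 608, 637, 636 and 521 CPM and fell by 0.43 (adjusted p = 0.0305). Cpt1b, the muscle form of the carnitine enzyme, was low, at 9.27, 9.41, 6.87 and 7.80 CPM and 4.96, 3.21, 4.35 and 5.31 CPM (adjusted p = 0.0479), and 79.7% of its words of 31 bases also occur in the gene model Gm44502.

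Enzymes of amino acid breakdown mostly had small negative log2 fold changes, and 1 passed. Cth, which makes cysteine from cystathionine, stood at 144, 140, 131 and 104 CPM and 99.8, 75.5, 79.9 and 60.3 CPM, without overlap, and fell by 0.72 on the log2 scale (adjusted p = 0.0306). It was the 1 gene called of 45 tested in this list, whose median was −0.15 and of whose members 5 were above 0. The median was −0.09 without AAV9.empty livers 3 and 4. Bhmt and Glud1, the most abundant members per length, had log2 fold changes of −0.18 (−0.42 to 0.054) and 0.27 (0.10 to 0.44). Cps1, the entry enzyme of the urea cycle, had one of −0.15 (−0.36 to 0.066). Outside the list, Kyat1, a transaminase of kynurenine, stood at 61.4, 47.6, 58.3 and 53.4 CPM and 37.5, 33.4, 44.5 and 30.7 CPM (adjusted p = 0.0339). Keg1, a gene of the glycine N-acyltransferase family, stood at 30.2, 24.4, 30.6 and 27.8 CPM and 18.7, 18.3, 16.2 and 14.3 CPM and fell by 0.74 (adjusted p = 0.0108). Klf15, a transcription factor of amino acid and glucose metabolism in fasting, stood at 40.8, 35.2, 42.5 and 44.2 CPM and 27.9, 21.2, 29.2 and 29.5 CPM (adjusted p = 0.0305).

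Red cell genes had log2 fold changes below 0 with few exceptions, and 1 of them passed. Car1, the erythroid carbonic anhydrase, stood at 37.5, 41.5, 41.1 and 46.01 CPM in PBS and 25.9, 30.7, 27.1 and 32.6 CPM in AAV9.empty, and fell by 0.51 on the log2 scale (adjusted p = 0.0305). Of its words of 31 bases 20.1% also occur in Gm5843. Of the 24 erythroid genes tested, 23 had a log2 fold change below 0, and the median was −0.29. For 6 of them the groups did not overlap, all lower in AAV9.empty, against 7.12% of all genes tested in either direction. The list summed to 134900 to 176900 TPM in the PBS livers and to 112500 to 142200 TPM in the AAV9.empty livers, ranges that overlap. Klf1, the erythroid master regulator, was at 137, 145, 135 and 119 CPM and 114, 109, 82.6 and 103 CPM, without overlap, and did not pass (adjusted p = 0.118). The globin genes Hba-a2 and Hbb-bs had log2 fold changes of −0.20 (−0.45 to 0.049) and −0.12 (−0.34 to 0.10). In whole liver, fewer red cell precursors and less RNA in each of them cannot be told apart. The megakaryocyte and platelet list had no call among 18 genes and a median of −0.16. Its sums were 566 to 586 TPM in PBS and 493.6 to 543.5 TPM in AAV9.empty, which do not overlap. This was not particular to platelets. The sums of ATF4 and CHOP effectors were also lower without overlap (1288 to 1465 and 1226 to 1258 TPM). Those of ER chaperones were higher without overlap (2212 to 2487 and 2559 to 2824 TPM). So were those of the stellate cell, glycosphingolipid, and cholangiocyte and fetal lists.

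The other genes that were lower have varied functions. Tff3, a secreted peptide of mucous epithelia, stood at 80.2, 71.1, 52.9 and 57.6 CPM and 32.5, 29.3, 47.6 and 31.3 CPM, and was highest of the AAV9.empty livers in liver 3, the one with stomach and pancreas genes. Its log2 fold change was −0.90 ± 0.15 (adjusted p = 0.0239), and −1.08 without livers 3 and 4 (adjusted p = 0.0176). Nlrp6, an inflammasome sensor, stood at 128, 132, 149 and 155 CPM and 83.7, 87.8, 106 and 92.6 CPM and fell by 0.61 (adjusted p = 0.0109). Olfm4, a secreted glycoprotein of gut stem cells and some neutrophils, stood at 48.9, 59.5, 59.6 and 55.7 CPM and 40.4, 38.5, 34.7 and 41.7 CPM (adjusted p = 0.0239). Gm4788 fell by 0.72 (adjusted p = 0.0202), and 37% of its words of 31 bases also occur in other genes, so its reads may be shared. The other 9 genes, Gramd1c, Nrbp2, Polr3gl, Adck5, Sppl2b, Grap2, Sugct, BC024386 and Ift140, fell by 0.41 (Sppl2b) to 0.90 (Nrbp2 and BC024386).

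Genes of the innate response to viruses did not pass, and their differences were bounded within 1 of 0, which leaves room for small differences. Of the 46 interferon-stimulated genes tested, none passed, all 46 were bounded within 1 of 0, and the median log2 fold change was 0.09. Bst2 and Isg15, the most abundant members per length, had log2 fold changes of 0.40 (0.16 to 0.65) and 0.25 (−0.069 to 0.57). Isg15 stood at 51.7, 51.4, 33.5 and 54.6 CPM and 72.5, 52.6, 46.1 and 55.7 CPM. Cxcl10, a chemokine induced by interferon and named after its values had been seen, was at 14.6, 12.2, 9.52 and 15.8 CPM and 17.7, 17.3, 13.97 and 22.9 CPM, and did not pass (adjusted p = 0.229). None of the 31 sensors of capsids and nucleic acids passed and all 31 were bounded. Tlr2 differed by −0.028 (−0.40 to 0.34), Tlr9 by 0.18 (−0.40 to 0.77) and Myd88 by −0.075 (−0.31 to 0.16). Irf3 and Unc93b1, the most abundant sensors per length, differed by −0.078 (−0.25 to 0.093) and −0.0014 (−0.19 to 0.19).

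Many inflammatory genes were too low to test or to bound. Of 38 cytokines and chemokines 20 were tested, none passed, and 12 were bounded within 1 of 0. Tnf stood at 1.23, 0.956, 1.09 and 1.42 CPM in PBS and 0.735, 1.29, 0.269 and 0.531 CPM in AAV9.empty, and its interval was −1.61 to 0.16. Il1a differed by 0.030 (−0.53 to 0.59), Il1b by −0.39 (−1.03 to 0.24), Ccl2 by 0.038 (−0.60 to 0.67) and Ccl3 by −1.03 (−2.40 to 0.34). Ccl9 and Cxcl12, the most abundant per length, differed by −0.075 (−0.26 to 0.11) and −0.031 (−0.19 to 0.13). The interferon gene Ifnb1 had 0 counts over the PBS livers and 2 over the AAV9.empty livers, Ifng had 16 and 16, and Il6 had 16 and 17, so that no change was detectable at this depth. None of the 22 NF-kB genes passed, with a median of −0.12 and all bounded.

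Genes of damage and death did not pass either. None of 35 p53 targets and none of 43 genes of the cell death machinery was called, 33 and 39 of them were bounded within 1 of 0, and the medians were −0.02 and −0.04. Bax, a death effector and p53 target, differed by −0.15 (−0.36 to 0.061) and Ei24 by −0.021 (−0.19 to 0.15). The survival genes Bcl2l1 and Birc5 differed by 0.0025 (−0.18 to 0.18) and −0.046 (−0.26 to 0.17). Ddit3, which encodes the stress factor CHOP, was at 9.31, 9.71, 10.4 and 9.21 CPM and 8.82, 6.83, 10.3 and 11.4 CPM, with an interval of −0.36 to 0.27. No member of the lists of ATF4 and CHOP effectors (24 tested), heat shock genes (20) or NRF2 and metallothionein genes (24) passed. Their medians were −0.09, −0.0081 and 0.13. Atf5 and Ppp1r15a, the most abundant of the first per length, differed by −0.39 (−0.62 to −0.15) and −0.13 (−0.37 to 0.10), and Hspa8 and Hsp90ab1 of the second by −0.13 (−0.35 to 0.10) and 0.055 (−0.10 to 0.21).

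The genes through which AAV enters cells were bounded closely. None of 29 genes of uptake and trafficking passed, all were bounded within 1 of 0, and the median was −0.02. AU040320 stood at 25.6, 29.6, 27.8 and 27.6 CPM and 26.8, 30.7, 24.99 and 24.5 CPM, with an interval of −0.24 to 0.15. Gpr108 stood at 14.01, 12.8, 12.5 and 11.8 CPM and 14.2, 12.9, 11.6 and 11.6 CPM (−0.25 to 0.21). Ctsl, a lysosomal protease, and Rpsa, the laminin receptor, the most abundant of the list per length, differed by −0.14 (−0.33 to 0.044) and −0.041 (−0.20 to 0.12). St3gal5, the synthase of the ganglioside GM3 and the gene the wider study replaces, stood at 177, 193, 183 and 189 CPM and 188, 189, 177 and 180.4 CPM, with an interval of −0.16 to 0.13. It was the most abundant gene but Psap in the glycosphingolipid list, in which none of 28 passed, and Psap differed by 0.051 (−0.11 to 0.21). Gusb, a reference gene of the lysosome, differed by 0.061 (−0.12 to 0.24).

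**Figure D3:**
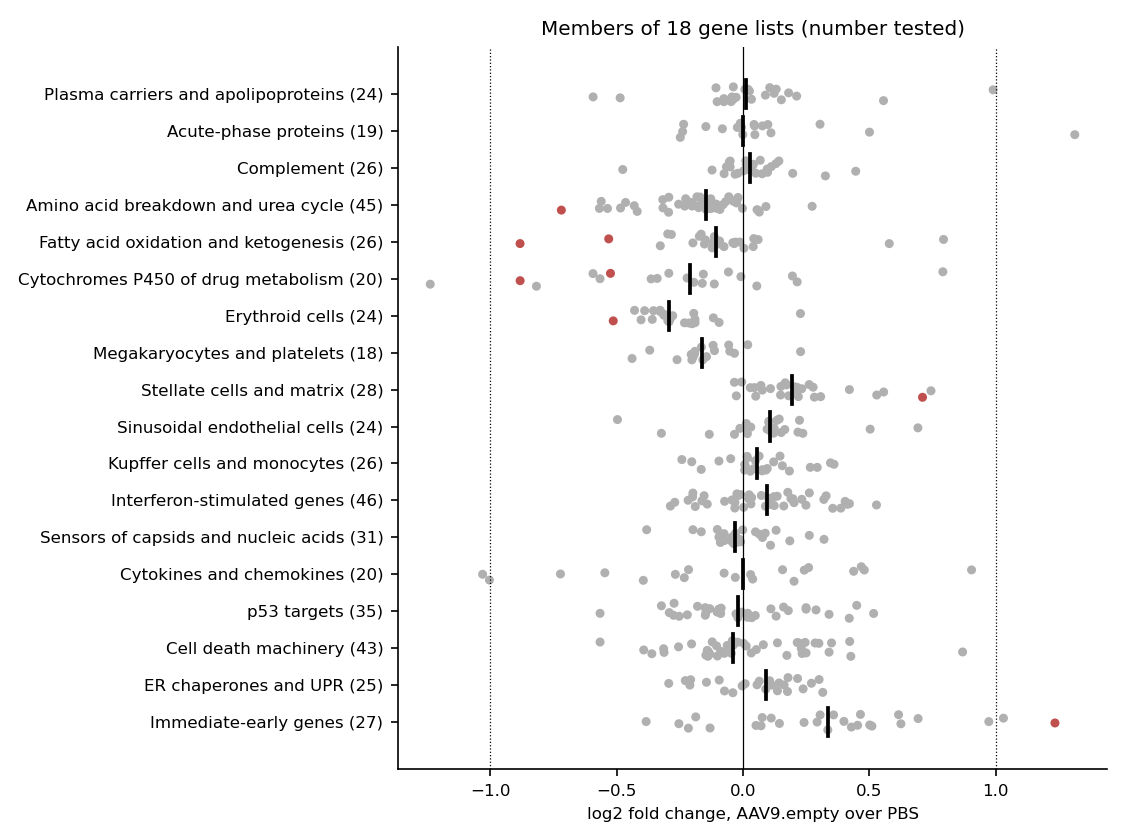
Log2 fold change of AAV9.empty over PBS for the tested members of 18 gene lists, with the number tested in brackets, called genes in red, the list median as a black bar and dotted lines at a fold of 2. The immediate-early, erythroid and P450 lists have the medians farthest from 0, at 0.34, −0.29 and −0.21.

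Over all 38 lists, 907 genes were tested, 2 were higher (Acta2 and Jun), 8 were lower and 842 were bounded within 1 of 0. Among all genes tested, 0.104% were called higher, 0.207% were called lower and 87.4% were bounded. Of the lists, 8 had a called member and 30 had none. The 8 lower genes were Cyp3a25, Cyp3a13, Cyp4a10, Cyp4a14, Sult2a1, Nr1i3, Cth and Car1. Nr1i3 was the 1 of 21 hepatocyte transcription factors that passed, and Cebpa and Creb3l3, the most abundant of these per length, differed by −0.16 (−0.38 to 0.062) and −0.12 (−0.33 to 0.077). None passed among 26 complement genes, 19 acute-phase genes, 21 coagulation genes, 18 genes of gluconeogenesis and glycogen, 24 of cholesterol synthesis, 19 of bile acids, 23 of iron, 18 of the clock, 18 of the glucocorticoid response or 35 of the cell cycle. Of these lists, bile acids had the median farthest from 0, at −0.10, and the others lay between −0.05 and 0.07. None passed among 26 Kupffer cell, 23 neutrophil, 15 B cell or 16 T and NK cell genes, whose medians were 0.06, −0.09, −0.15 and 0.16. Without AAV9.empty livers 3 and 4 these were 0.12, −0.07, 0.16 and 0.42, so that the B cell median changed sign. The lists of plasma carriers (24 tested) and of cholangiocytes and fetal markers (21) had no call and medians of 0.01 and 0.06.

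Abundant members of these lists were measured closely. The complement genes C3 and Cfb differed by −0.031 (−0.22 to 0.15) and 0.017 (−0.17 to 0.20), and the clotting genes Kng1 and Serpinc1, which encode kininogen and antithrombin, by −0.0092 (−0.21 to 0.20) and −0.10 (−0.29 to 0.094). The bile acid importer gene Slc10a1 differed by −0.10 (−0.30 to 0.10) and the gluconeogenic gene Fbp1 by 0.12 (−0.076 to 0.31). Of the immune cells, the macrophage genes Lyz2 and C1qa differed by −0.17 (−0.32 to −0.012) and 0.076 (−0.12 to 0.27), and the neutrophil genes S100a8 and S100a9 by −0.019 (−0.17 to 0.13) and −0.080 (−0.29 to 0.13).

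The level of the most abundant genes describes the tissue in which the groups were compared. The 20 genes with the highest mean TPM held 37.7% of all TPM in PBS. Red cell globins led, with Hba-a2 at 52978 ± 8126 TPM (SD, n = 4) in PBS and 44130 ± 5865 in AAV9.empty, and Hbb-bs at 46502 ± 5935 and 41813 ± 4341. Secreted hepatocyte proteins followed. Albumin (Alb) was at 38421 ± 1741 and 36981 ± 2825 TPM, apolipoprotein E (Apoe) at 27273 ± 1647 and 27289 ± 2785, fetuin A (Ahsg) at 24594 ± 1804 and 25438 ± 1832, and transferrin (Trf) at 22059 ± 759.6 and 22150 ± 548. Fetal genes were also among the 20. Afp, the albumin of the fetus, was at 14657 ± 503 and 16532 ± 1378 TPM, and the imprinted RNA H19 at 6961 ± 246 and 6949 ± 895.

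None of these 20 genes passed, and all 20 were bounded within 1 of 0. The closest to the threshold was the mitochondrial gene mt-Nd3, with a log2 fold change of 0.45 in counts (adjusted p = 0.123) and TPM of 8713 ± 1175 and 9224 ± 1004. Of its 31-base words 98.1% also occur in other gene models. Alb differed by −0.10 (−0.30 to 0.10), Apoe by −0.028 (−0.23 to 0.18), Afp by 0.12 (−0.078 to 0.32) and Ttr, the carrier of thyroid hormone, by 0.11 (−0.11 to 0.32). Mt1, a metal-binding protein, was at 6705 ± 1143 TPM in PBS and 5278 ± 1798 in AAV9.empty. Hepatocyte and red cell markers were thus abundant in both groups. In 18 of the 20 genes the groups overlapped in CPM, and in mt-Nd3 and Gm28661 they did not.

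**Figure D4:**
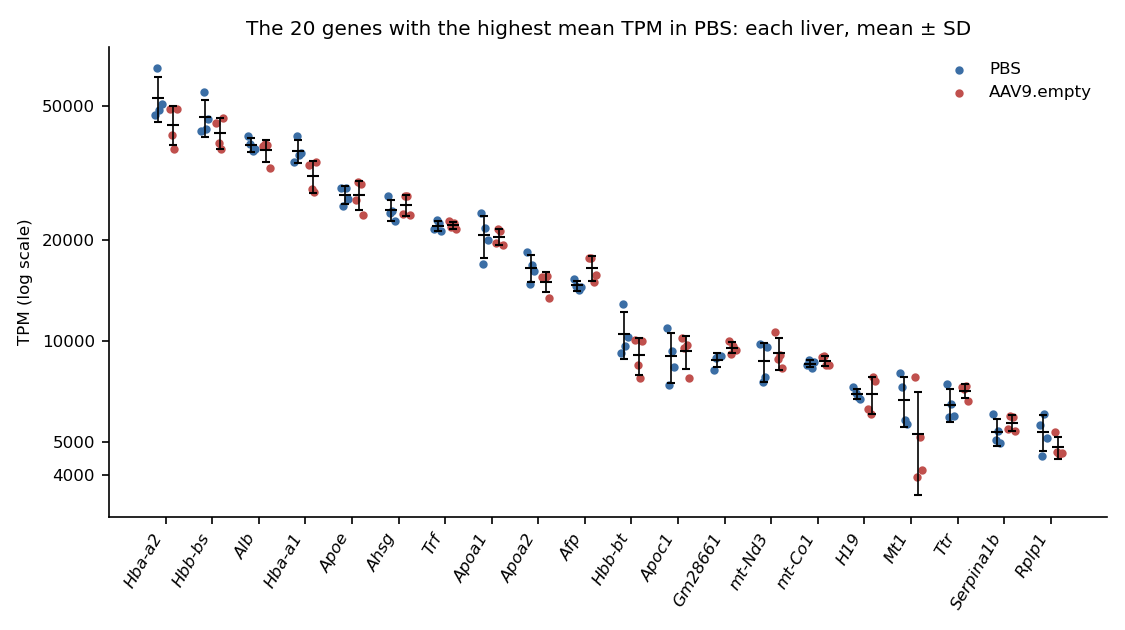
TPM on a log scale of the 20 genes with the highest mean TPM in PBS, in each PBS liver (blue) and each AAV9.empty liver (red), with mean ± SD in black. The means in PBS run from 52978 TPM for Hba-a2 to 5366 TPM for Rplp1.

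A fold of at least 2 was fitted for 130 genes, 126 of them without a call. The highest belonged to Cym (log2 fold change 4.66, adjusted p = 0.147) and Ctrb1 (4.44, adjusted p = 0.213), both from AAV9.empty liver 3 alone. Cyp11a1 and Chga followed the same pattern with AAV9.empty liver 4. Gm47283, a gene of the end of the sex chromosomes, stood at 14.4, 21.9, 16.2 and 15.7 CPM in PBS and at 20.8, 19.9, 12.4 and 0 CPM in AAV9.empty, and Erdr1 was likewise at 0 in AAV9.empty liver 4. The neighbouring gene Mid1 was at 5.05, 5.38, 3.04 and 8.71 CPM and 9.01, 10.7, 9.99 and 3.57 CPM, lowest of its group in the same liver.

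Some called genes are also given for the 4 groups that received a capsid with a vector genome, with CPM scaled over all 22 libraries. These are AAV9.EGFP (EGFP behind the CB promoter), rAAV9-ST3GAL5.v1 (the human ST3GAL5 cDNA behind CB), rAAV9-CB-ST3GAL5-E332K (a form of it with the change E332K) and rAAV9-ST3GAL5.v2 (the cDNA behind the neuronal Syn1 promoter with sites for miR-122), with 4, 3, 3 and 4 livers. The values are side by side with the same PBS livers and are given as a description. H2-Q7 was at 13.1 ± 2.10 CPM (SD) in PBS, 26.3 ± 3.07 in AAV9.empty, 20.5 ± 4.04 in AAV9.EGFP, 61.2 ± 12.4 in rAAV9-ST3GAL5.v1, 35.2 ± 8.40 in rAAV9-CB-ST3GAL5-E332K and 18.5 ± 3.39 in rAAV9-ST3GAL5.v2. Cyp3a25 was at 95.3 ± 11.3 CPM (SD) in PBS, 51.8 ± 6.73 in AAV9.empty, 49.7 ± 8.53 in AAV9.EGFP, 23.7 ± 2.84 in rAAV9-ST3GAL5.v1, 40.5 ± 7.85 in rAAV9-CB-ST3GAL5-E332K and 61.3 ± 7.09 in rAAV9-ST3GAL5.v2. In the livers with a genome the mean of H2-Q7 lay above that of PBS and the mean of Cyp3a25 below it. Other called genes did not keep to one side. Car1 was at 41.9 CPM in PBS and 29.4 in AAV9.empty, but at 68.8 in rAAV9-CB-ST3GAL5-E332K. Tmx2 was at 51.6 CPM in PBS and 70.3 in AAV9.empty, but at 41.9 in rAAV9-ST3GAL5.v1.

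Jun was at 13.6 ± 1.64 CPM (SD) in PBS, 32.1 ± 15.4 in AAV9.empty, 42.1 ± 8.37 in AAV9.EGFP, 99.8 ± 19.02 in rAAV9-ST3GAL5.v1, 28.1 ± 2.54 in rAAV9-CB-ST3GAL5-E332K and 16.6 ± 1.10 in rAAV9-ST3GAL5.v2. Krt20 was at 18.02 ± 1.68 CPM (SD) in PBS, 32.4 ± 2.89 in AAV9.empty, 35.5 ± 4.11 in AAV9.EGFP, 22.2 ± 4.004 in rAAV9-ST3GAL5.v1, 65.95 ± 14.7 in rAAV9-CB-ST3GAL5-E332K and 26.5 ± 5.63 in rAAV9-ST3GAL5.v2. Inmt was at 14.8 ± 3.74 CPM (SD) in PBS, 6.69 ± 1.20 in AAV9.empty, 2.36 ± 1.12 in AAV9.EGFP, 0.676 ± 0.476 in rAAV9-ST3GAL5.v1, 1 ± 0.185 in rAAV9-CB-ST3GAL5-E332K and 3.56 ± 2.04 in rAAV9-ST3GAL5.v2. For Jun the mean of the empty capsid lay between those of rAAV9-CB-ST3GAL5-E332K and AAV9.EGFP, and for Inmt it lay nearest to PBS of the 5 treated groups.

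**Figure D5:**
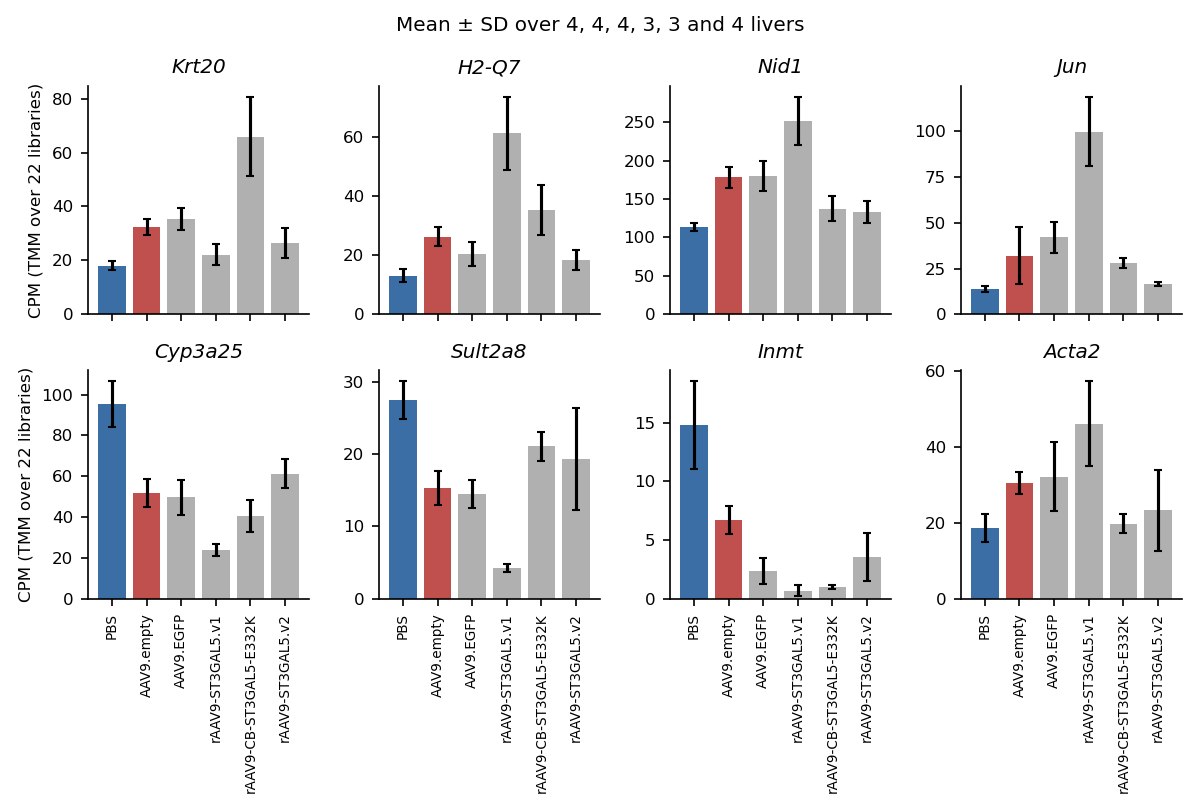
Mean CPM ± SD of 8 called genes in the 6 groups of the series, scaled over the 22 libraries, with PBS in blue, AAV9.empty in red and the groups with a vector genome in grey. Jun and H2-Q7 are highest in rAAV9-ST3GAL5.v1, at 99.8 and 61.2 CPM, and Inmt is highest in PBS at 14.8 CPM.

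The effective lengths implied by the counts and TPM differed between the groups by 0.06 (log2, AAV9.empty minus PBS) in the 1065 genes with the shortest lengths and by −0.0044 in the 1299 with the longest, and the median log2 fold changes of these genes were 0.05 and −0.01. With the lengths taken into the fit, a setting chosen after the data had been seen, 7 genes were called. These were Krt20, H2-Q7, Nid1 and Dnajc15, which were higher, and Cyp3a25, Sult2a8 and Tff3, which were lower. Of the 7, 6 were among the 45, and Dnajc15 was not.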

How the data were processed

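RNA of 22 livers was sequenced by the authors, and the 8 of AAV9.empty and PBS were analysed. The deposited expected counts and the deposited TPM per gene were made by the authors with Trimmomatic, STAR and RSEM on mm10, as the submitters' processing notes name them, in a DolphinNext pipeline, and the annotation release is not given in the sources used here. RSEM divides reads that match several genes, which affects gene families. Members and gene lists were chosen with earlier results of these data known.

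Expected counts were rounded to whole numbers, scaled by TMM and tested with edgeR 4.0.16 (filterByExpr, quasi-likelihood F-test, R 4.3.3), with p-values adjusted by Benjamini-Hochberg over the 14476 genes tested. A gene was called at an adjusted p of at most 0.05. Intervals are 95% intervals of the log2 fold change, and bounded means that they lie within 1 of 0. The labels do not say that replicates came from separate litters, so the p-values rest on the variation among these samples, which may be partly technical. Depth sets the precision: the 1820 genes without a bound had a median of 0.924 CPM. Data with known changes, 100 for each fold, were simulated for this comparison and run on 14331 genes. Of the 2-fold changes 80% were called and of the 1.5-fold changes 61%, with 12 false calls. The simulated counts held no RNA of other organs and no shift of effective length, so these shares may not hold for the real livers.

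Named genes were, in each direction, the 12 called genes with the smallest p and a mean of at least 1 CPM, the called members of each list (at most 4) with its 2 most abundant members, the 20 genes highest in PBS, fixed sets of inflammatory, AAV and sex chromosome genes, and the 5 most variable genes of each group with a mean of at least 10 CPM. Other called genes, and Egr1, Fos, Cym, Ctrb1, Chga, Cyp11a1, the class I genes beside H2-Q6 and H2-Q7, and further members named for comparison, were chosen after their values were seen. Correlations gave no sign that replicate numbers pair the livers, which does not exclude pairing. A named gene that is withheld is not reported here. Other settings tried were median-of-ratios factors, DESeq2 1.42.0, other filters, all 6 groups in one fit, a replicate block, limma 3.58.1 on log2(TPM + 1) and log2(TPM + 0.1), and leaving out each liver.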

Additional observations from a re-analysis of the deposited data

Results flagged for a closer look

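In 18 of 302 groups of 4 livers tested (5.96%), over 151 genes named by rule, 1 liver lay apart from the other 3 by Dixon's test, and chance gives about 1 in 20. PBS liver 1 held 6 of them and was the highest in each, with Apoa2 at 3767 CPM, Apoc1 at 1476 CPM, Gstp1 at 385.3 CPM, Gusb at 53.85 CPM, Serpinc1 at 2271 CPM and Unc93b1 at 77.44 CPM. In AAV9.empty liver 4, Alb at 51500 CPM, C3 at 7865 CPM, Irf3 at 33.25 CPM and Ttr at 5430 CPM were the lowest of their group. AAV9.empty liver 2 had Lars2 at 456.2 CPM, against at most 88.4 CPM in the other AAV9.empty livers, Rn7s1 at 87.81 CPM, against at most 9.14 CPM, and Gm4788 at 7.503 CPM, the lowest of its group. AAV9.empty liver 1 had Rplp1 at 1023 CPM, the highest, and Tkfc at 498.6 CPM, the lowest of its group. PBS liver 3 had Higd1a at 28.51 CPM, the highest, and Isg15 at 33.55 CPM, the lowest, and PBS liver 2 had Glud1 at 1460 CPM, the lowest.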

How the results depend on the processing

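The number of calls moved with the setting, and no called gene changed direction under any of them. Against 45 calls, DESeq2 gave 305 (144 higher, 161 lower), no filter on low counts 330, all 6 groups in one fit 14 (10 higher, 4 lower) and the replicate block 102. Limma on TPM gave 1 with either pseudocount and without a filter, and none of the 45 passed there. Effective-length offsets gave 7, and leaving out AAV9.empty livers 3 and 4 gave 13. Leaving out 1 liver gave 5 to 234. Of the 4 genes with a fold of at least 2, DESeq2 gave 7, no filter 92, the replicate block 10, limma 1 in each form, the offsets 2, and leaving out 1 liver 0 to 17. The count of bounded genes, 12656, was 12228 to 12369 with 1 liver left out and 23355 in limma without a filter. Same-numbered livers had correlations of their deviations of −0.119 to 0.0725, and 1 of 4 numbers correlated best with its own. These values gave no sign of pairing by number, but so few cannot exclude it. The replicate block kept all 45 calls among its 102. Of 855 values of the called genes over these settings, 401 kept the call and 454 lost it. Of 2029 values of 107 other named genes, 20 gained one and 159 changed sign. The cause of these differences was not tested.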
